A study of Rattus norvegicus with 10 samples.

Results

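Beta-cell disallowed genes are genes that most tissues express and that adult β-cells, which make insulin, keep at a low level. 10 of them were examined by name: Ldha, Slc16a1, Hk1, Rest, Oat, Acot7, Maf, Igfbp4, Cxcl12 and Pdgfra. All 10 were found by symbol among the 23918 genes of the expression table. The cells were β-cells of adult Sprague-Dawley rats, enriched by FACS on their autofluorescence and kept in culture. One group was transfected with 4 pooled siRNAs against Scrt1, a repressor of transcription (siSCRT1, libraries A to E) and the other with a negative control (Control, libraries 1 to 5). The RNA was extracted 48 h later, and each group has 5 libraries. No source used here says which libraries came from separate animals or cultures, so p-values measure the spread between these libraries, which may be technical.

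The low level of these genes is tied to how a β-cell senses glucose. A β-cell breaks glucose down to pyruvate and sends the pyruvate to its mitochondria. Hexokinase 1 (Hk1) would phosphorylate glucose even when it is scarce, lactate dehydrogenase A (Ldha) would turn pyruvate into lactate, and the carrier encoded by Slc16a1 would let pyruvate and lactate from the blood into the cell. Rest is a repressor of neuronal genes, many of which β-cells use for secretion.

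The libraries held 11901342 to 17444034 recovered reads, that is, the deposited scaled counts divided by what 1 read was worth in each library. Reads relative to that total are given as CPM (counts scaled to a common library total), and levels of different genes are compared only as the deposited TPM, which takes transcript length into account. Scrt1, the targeted gene, fell from 14.1 ± 2.61 CPM in Control to 3.58 ± 1.63 CPM in siSCRT1 (SD, n = 5 each; log2 fold change -2.06, SE 0.308, limma adjusted p = 0.00618), and the groups did not overlap. Without Control 4 and siSCRT1 D, which carry the number 4 in the deposited table, its log2 fold change was -1.82 with a limma adjusted p of 0.062, an alternative chosen after seeing the data. The 9 β-cell markers in the table, Ins1 and Ins2 among them, summed to between 102920 and 166072 CPM.

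The genes fell into a wide order of levels. Over all 10 libraries the mean TPM was 4.70 ± 0.797 for Acot7, 3.35 ± 0.670 for Oat and 2.58 ± 0.749 for Igfbp4 (SD, n = 10). Slc16a1 followed with 1.19 ± 0.187, Ldha with 1.10 ± 1.01, Pdgfra with 0.604 ± 0.185 and Maf with 0.538 ± 0.271. Cxcl12 had 0.143 ± 0.0627 TPM, Rest 0.0296 ± 0.0261 and Hk1 0.0217 ± 0.0370. In this order the ranges of neighbours overlapped everywhere except between Maf and Cxcl12. Acot7, which cleaves fatty acyl-CoA, was thus the highest of the 10, and it was above Oat in 9 of 10 libraries.

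Most of these levels were low among the genes with enough reads to be tested. The median gene tested had 9.82 TPM in Control, and 30.4% of the genes tested lay below Acot7, the highest of the 10. For Ldha this share was 12.1%, for Pdgfra 5.76% and for Cxcl12 0.348%. Over all 23918 genes, which include those that are hardly read, the shares of genes with a lower level were higher: 62.0% for Acot7, 59.0% for Oat, 56.2% for Igfbp4, 52.1% for Slc16a1 and 51.5% for Ldha. 5 of the 10 genes were under 1 TPM in Control. Of all 23918 genes, 50.8% were under 1 TPM, so that count is near the background, which includes genes that are not expressed at all.

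**Figure D1:**
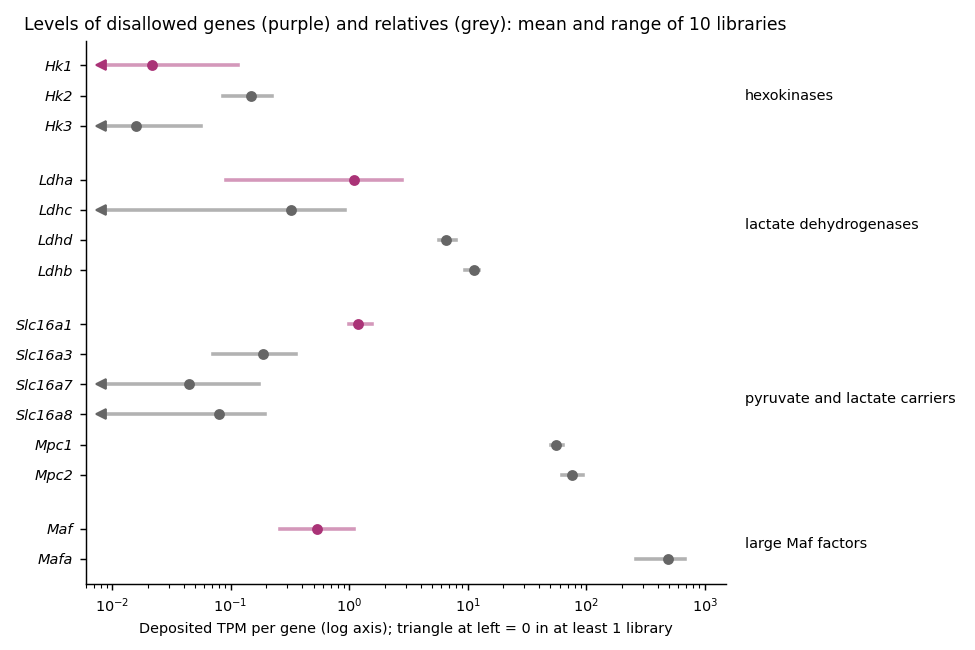
Deposited TPM per gene on a log axis, with the mean (point) and range (bar) over 10 libraries, for 4 disallowed genes (purple) and their relatives (grey). A triangle at the left edge marks a value of 0 in at least 1 library. Hk1 has the value 0 in 6 of 10 libraries, Ldha lies below Ldhb, and Maf lies below Mafa.

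The question put to these libraries was whether lowering Scrt1 changed the level of the disallowed genes. None of the 8 genes that passed the filter on low values changed at an adjusted p-value under 0.05. The test was limma on log2 of the scaled counts plus 0.5, adjusted over the 12941 genes tested, of which it called 136 (1.05%), 48 of them raised (0.371%) and 88 lowered (0.68%). At an unadjusted p under 0.05 it called 0 of the 8, beside 1435 genes (11.1%) in all. The median log2 fold change of the 8 genes was 0.15, beside 0.0035 over all genes tested. It was above 0 for 6 of the 8, beside 6601 (51.0%) of all genes tested, and a lean of the 8 genes was not tested. The CPM of the groups overlapped for all 8, while 383 genes (2.96%) of those tested had no overlap. The filter asked for a level worth 10 reads at the median depth in 5 or more libraries. Hk1 and Rest did not reach it, and they are given by their reads.

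**Figure D2:**
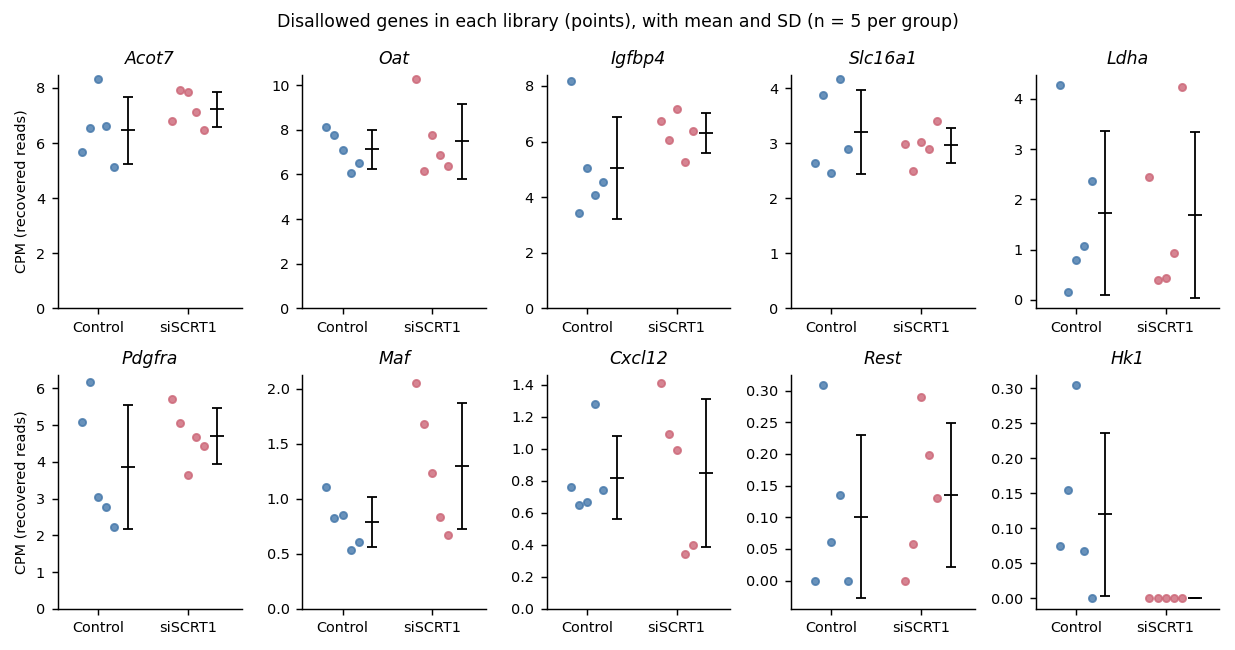
CPM of the 10 disallowed genes in each library (points; Control blue, siSCRT1 red), with the mean and SD of each group (n = 5). The groups overlap for every gene, and Hk1 is at 0 in all 5 siSCRT1 libraries and in Control 5.

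Ldha makes lactate from pyruvate. It had 4.27, 0.154, 0.790, 1.07 and 2.37 CPM in Control 1 to 5, and 2.44, 0.401, 0.435, 0.924 and 4.24 CPM in siSCRT1 A to E. The highest library was 27.7 times the lowest, and high and low libraries occurred in both groups. The coefficient of variation was 94.3% in Control and 97.7% in siSCRT1, where the mean number of reads alone gives 20.5% and 20.3%. The log2 fold change was 0.07 (SE 0.831, 95% interval -1.72 to 1.87, limma adjusted p = 0.986), which as a fold is an interval from 0.303 to 3.66. The libraries numbered 1 and 5 in the deposited table were the highest in both groups. With that number as a block the SE was 0.360 and the 95% interval -0.72 to 0.87 (limma adjusted p = 0.942).

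The partner of Ldha, Ldhb, which favours the oxidation of lactate, was far steadier at 11.7 ± 0.863 TPM in Control and 11.1 ± 0.921 TPM in siSCRT1 (SD, n = 5 each). Ldha made up 8.46% ± 8.13 of the TPM of both genes in Control and 8.58% ± 7.72 in siSCRT1 (exact two-sided permutation test, p = 0.992). In single libraries this share ran from 0.773% in Control 2 to 21.4% in Control 1. Of the 10 genes of lactate and pyruvate metabolism that were tested, Ldha included, none passed the adjusted threshold. The highest of them by TPM were Pkm, a pyruvate kinase, with 881 ± 174 TPM in Control, and the subunits of the mitochondrial pyruvate carrier Mpc2 with 79.9 ± 13.4 and Mpc1 with 56.7 ± 5.99.

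Slc16a1 encodes the monocarboxylate carrier MCT1. It had 2.64, 3.87, 2.45, 4.16 and 2.89 CPM in Control and 2.99, 2.49, 3.03, 2.89 and 3.40 CPM in siSCRT1. The siSCRT1 libraries lay inside the range of the Control libraries. Slc16a1 had a log2 fold change of -0.05 (SE 0.170, 95% interval -0.42 to 0.31, limma adjusted p = 0.935). Slc16a1 took 81.9% ± 9.95 of the TPM of the carriers Slc16a1, Slc16a3, Slc16a7 and Slc16a8 in Control and 76.9% ± 4.27 in siSCRT1 (exact two-sided permutation test, p = 0.341). None of the 8 tested genes of monocarboxylate transport passed. The highest were the accessory proteins Bsg, at 271 ± 50.3 TPM in Control, and Emb, at 231 ± 14.9, and the carrier Slc16a12 at 53.7 ± 6.82.

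Hk1 was read only in Control. It had 1, 2, 5, 1 and 0 reads in Control 1 to 5 and 0 reads in each of the 5 siSCRT1 libraries, so that the groups share the value 0. The exact two-sided permutation test on CPM gave p = 0.0476. With 0 reads in 6 of 10 libraries, this is the smallest p that these values allow. Values without ties would allow 0.00794 with 5 against 5 libraries. Set against a floor of 3 reads over the group, Hk1 was at least 3.12-fold lower in siSCRT1, a bound that takes the Control reads as exact. 5 of the 9 reads were in Control 3, and without that library the bound was 1.81. With the counting error of both groups, the exact (Clopper-Pearson) 95% lower limit of the fold was 2.06, and 0.896, a limit below 1, without Control 3. These limits pool the reads of each group and leave out the spread between libraries. In Control the coefficient of variation of Hk1 was 96.9%, where the mean number of reads alone gives 74.5%. With no filter on low genes, limma gave Hk1 an adjusted p of 0.235. The permutation p of Hk1 was not adjusted, although Rest was tested in the same way, and it rests on few reads. Leaving out 1 library gave a p from 0.0159 (without Control 5) to 0.0952 in this permutation test. All reads stayed in Control each time, so the tied zeros and the number of libraries set these p-values. The table represents Hk1 by 1 transcript of 2682 bases.

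Hk2, another low-Km hexokinase, had 0.154 ± 0.0533 TPM in Control and 0.142 ± 0.0328 TPM in siSCRT1 (SD, n = 5 each). It passed the filter, and its log2 fold change was -0.07 (limma adjusted p = 0.954).

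The binding core of the Scratch and Snail family of repressors, CAGGTG, was searched on both strands in windows of 300 bases, from 250 before to 50 after each start, from RefSeq on the build GRCr8, which is not the build of the expression table. All 10 genes had windows, 12 in total, and 1 of the 12 (8.33%) held the motif, beside 18.8% of all 33469 windows. The match was in 1 of the 2 windows of Hk1, 28 bases after the start, within the 30 bases at chr20:30874770-30874799 on the minus strand. It is printed here because it is the single match, with the motif in capitals as its reverse complement:
Hk1: gagtccctgaacCACCTGggaccatggagg
A match of these letters is a description of the window and was not tested for binding.

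Rest had 0, 4, 1, 2 and 0 reads in Control and 0, 1, 4, 3 and 2 reads in siSCRT1. The sums were 7 and 10 reads, and the exact two-sided permutation test gave p = 0.698. With so few reads, this gives little information on the size of a difference in Rest. Of the 12 tested genes of Rest corepressors, counted by gene identifier, none passed. Rcor1 is entered under separate identifiers, with log2 fold changes of -0.036 and -0.22. The highest by TPM were Sin3b at 49.6 ± 3.84 TPM in Control, Smarca4 at 44.4 ± 4.70 and Hdac2 at 36.3 ± 2.93. Of 16 genes listed here as Rest targets, 1 passed, and that was Scrt1, the gene the siRNAs were directed against. For 3 of the 16, Scrt1 included, the CPM of the groups did not overlap, beside 2.96% of all genes tested. With the number that the table gives each library as a block, where 259 genes (2%) were called, Syt4, a vesicle protein of secretion, passed as well: it had 184 ± 22.0 TPM in Control and 143 ± 11.5 in siSCRT1 (log2 fold change -0.36, limma adjusted p = 0.0966 without the block and 0.0210 with it).

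Oat, the mitochondrial ornithine aminotransferase, had 8.14, 7.78, 7.11, 6.08 and 6.49 CPM in Control and 10.3, 6.13, 7.76, 6.86 and 6.39 CPM in siSCRT1. One library, siSCRT1 A, lay above all Control libraries. For Oat the fitted log2 fold change was 0.09 (SE 0.162, 95% interval -0.26 to 0.44, limma adjusted p = 0.889), and without siSCRT1 A it was -0.04. None of the 9 tested genes of ornithine and proline metabolism passed. The highest were Glul, glutamine synthetase, at 166 ± 26.9 TPM in Control, Arg1, an arginase, at 146 ± 22.4, and Odc1, which makes putrescine, at 43.4 ± 5.99.

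Acot7 had 5.68, 6.55, 8.33, 6.63 and 5.12 CPM in Control and 6.81, 7.91, 7.84, 7.13 and 6.46 CPM in siSCRT1. 4 of 5 siSCRT1 libraries were above the Control mean, but none was above Control 3. Its log2 fold change was 0.21 (SE 0.148, 95% interval -0.11 to 0.53, limma adjusted p = 0.639), the narrowest interval of the 8 genes in the fit without a block. Acot7 gave 11.9% ± 2.48 of the TPM of all Acot genes in Control and 13.4% ± 1.66 in siSCRT1 (exact two-sided permutation test, p = 0.270). None of the 8 tested acyl-CoA thioesterases passed. The highest by TPM over all libraries were Acot9, at 11.1 ± 1.36 TPM in Control, and Acot13, at 7.06 ± 0.816, followed by Acot7 itself.

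**Figure D3:**
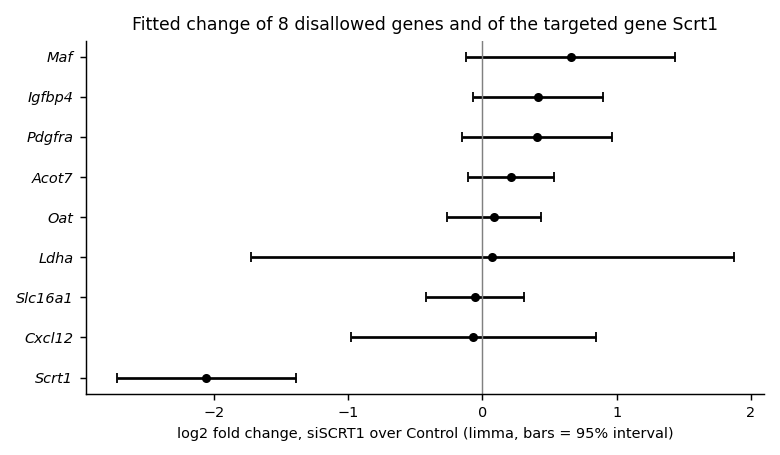
Fitted log2 fold change, siSCRT1 over Control, with its 95% interval, for the 8 disallowed genes tested and for Scrt1. The intervals of all 8 disallowed genes include 0, and that of Ldha is the widest in this fit, which has no block, from -1.72 to 1.87.

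Maf is a large Maf transcription factor and a relative of Mafa, which drives insulin transcription. It had 1.11, 0.823, 0.852, 0.538 and 0.607 CPM in Control and 2.05, 1.68, 1.24, 0.836 and 0.675 CPM in siSCRT1. 3 siSCRT1 libraries lay above the highest Control library and the other 2 lay inside the Control range. Its log2 fold change, 0.66, was the largest of the 8 genes (SE 0.360, 95% interval -0.12 to 1.44, limma adjusted p = 0.537). These values rest on 7.95 to 29.3 reads a library, part of which kallisto shared with other transcripts.

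The deposited table numbers the libraries 1 to 5 in each group. Maf was higher in siSCRT1 in 5 of 5 pairs of the same number. The labels do not state a pairing, and the share of all genes higher in 5 of 5 pairs was not counted. With that number as a block, the unadjusted limma p of Maf was 0.0339 and its adjusted p 0.267. Mafa had 427 ± 90.6 TPM in Control and 547 ± 98.7 in siSCRT1 (log2 fold change 0.37, limma adjusted p = 0.437). None of the 6 tested Maf factors passed, and after Mafa the highest were the small Maf factors Mafg, at 22.5 ± 2.30 TPM in Control, and Mafk, at 13.3 ± 0.772.

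Igfbp4 encodes a secreted protein that binds insulin-like growth factors. It had 8.16, 3.45, 5.04, 4.06 and 4.54 CPM in Control and 6.72, 6.05, 7.17, 5.26 and 6.39 CPM in siSCRT1. All 5 siSCRT1 libraries were above the Control mean, while Control 1 was above all of them. The log2 fold change was 0.41 (SE 0.224, 95% interval -0.07 to 0.90, limma adjusted p = 0.535). Without Control 1 it was 0.62, with the lowest limma adjusted p that any of the 8 genes reached in an alternative fit, 0.15. Without Control 2 it was 0.27 (limma adjusted p = 0.814). None of the 9 tested genes of the insulin-like growth factor system passed. The highest were Igfbp7 at 553 ± 85 TPM in Control and the receptors Igf2r at 29.4 ± 5.16 and Igf1r at 28.4 ± 3.96.

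Cxcl12, a chemokine, had 0.764, 0.648, 0.670, 1.28 and 0.741 CPM in Control and 1.41, 1.09, 0.991, 0.345 and 0.402 CPM in siSCRT1. siSCRT1 A lay above the Control range, D and E lay below it, and B and C lay inside it. Cxcl12 had a log2 fold change of -0.07 (SE 0.422, 95% interval -0.98 to 0.85, limma adjusted p = 0.972). Without Control 4 and siSCRT1 D, the libraries numbered 4 in the table, it was 0.37, an alternative chosen after seeing the data. Its receptors Cxcr4, at 0.0654 ± 0.0428 TPM in Control, and Ackr3, at 0.0413 ± 0.0272, did not pass the filter. The peptidase Dpp4, which cleaves it, had 0.318 ± 0.15 TPM, and neither it nor Cxcl12 passed the adjusted threshold.

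Pdgfra, a receptor for platelet-derived growth factors, had 5.08, 6.17, 3.04, 2.77 and 2.22 CPM in Control and 5.71, 5.04, 3.63, 4.68 and 4.44 CPM in siSCRT1. The siSCRT1 libraries lay inside the Control range, toward its upper end. The log2 fold change was 0.41 (SE 0.258, 95% interval -0.15 to 0.97, limma adjusted p = 0.598). With the number as a block, Igfbp4 and Pdgfra had unadjusted limma p-values of 0.0291 and 0.0478 and adjusted ones of 0.249 and 0.307. Including Maf, 3 of 8 genes were thus under an unadjusted 0.05 in that fit, beside 16.1% of all genes tested. The ligands Pdgfa and Pdgfb had log2 fold changes of 0.35 and 0.45 with limma adjusted p-values of 0.447 and 0.348, and levels of 4.49 ± 0.707 and 0.931 ± 0.167 TPM in Control.

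**Figure D4:**
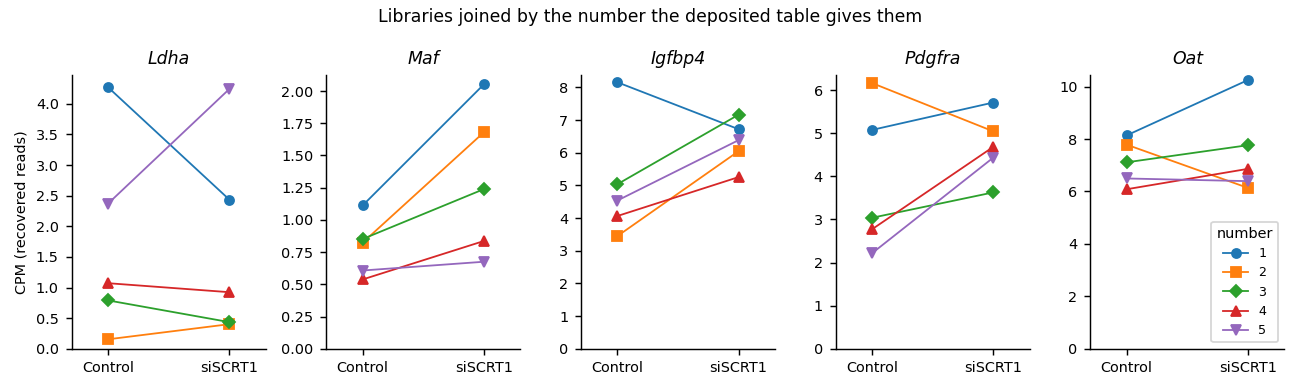
CPM of 5 disallowed genes, with Control and siSCRT1 libraries of the same number in the deposited table joined by a line. All 5 lines rise for Maf, 4 of 5 for Igfbp4 and Pdgfra, 3 of 5 for Oat and 2 of 5 for Ldha. Of the tested genes not drawn, Acot7 was higher in siSCRT1 in 4 of 5 pairs, and Cxcl12 and Slc16a1 in 3 of 5.

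Besides the relatives and partners, a list of 20 further genes described as kept low in β-cells was written from general knowledge and not checked against a source. Of its 13 tested genes none passed. In Control 9 of the 19 in the table were under 1 TPM, beside 50.8% of all 23918 genes. Some were not low: Cat, which breaks down hydrogen peroxide, had 68.7 ± 10.2 TPM in Control, Cd59 had 30.7 ± 2.14 and Gas6 had 19.4 ± 5.41. Over all lists together, this one included and the 10 genes left out, 89 genes were tested, 0 were raised and 1 was lowered, which was Scrt1. Their median log2 fold change was 0.0066.

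**Figure D5:**
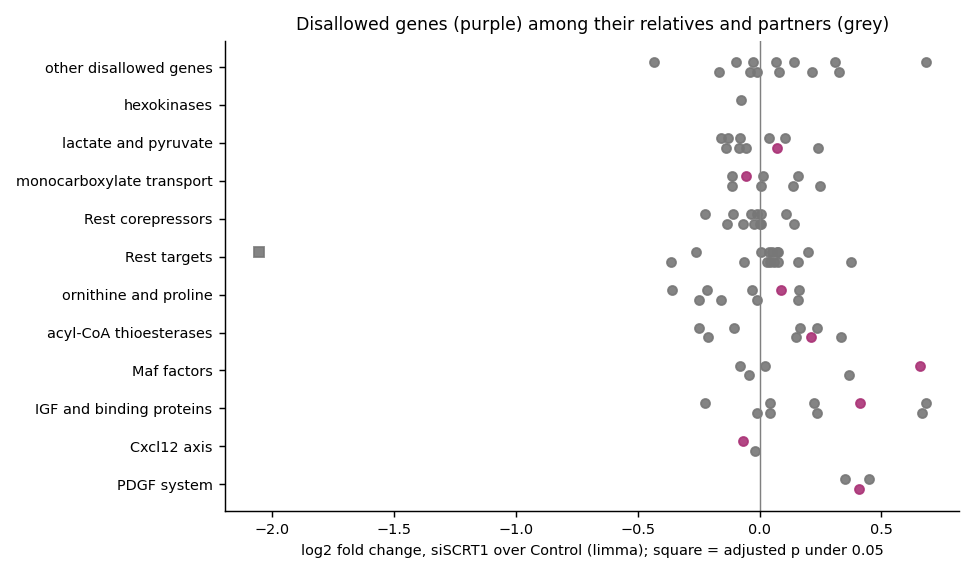
Fitted log2 fold change of tested genes in the lists of relatives, partners and further genes kept low (grey), with the disallowed genes in purple. Scrt1, the square at -2.06, is the single gene with an adjusted p under 0.05.

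No transcript of these genes was called either. The 10 genes had 12 transcripts in the table, of which 8 were tested and 0 passed, beside 73 of 17578 (0.415%) in all. Reads were shared with transcripts of other genes in all 10 libraries for Slc16a1, Maf, Igfbp4 and Cxcl12 and in 2 libraries for Ldha. These levels thus depend on how kallisto divided the reads. Acot7 and Rest had 2 transcripts each and had reads divided between these, which left the read sum of the gene whole. For Acot7, 94.7% of the reads came from 1 transcript.

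Several of the 10 genes are known to be expressed in other cells of the pancreas, so the markers of those cells were summed. In RNA of a whole sample, fewer cells of a type and less RNA per cell cannot be told apart. For none of the 10 marker lists did the test of the groups pass (exact two-sided permutation tests, p from 0.476 to 0.960, all 0.960 after adjustment over the lists). The mesenchymal markers, where Pdgfra is also known, were at 0.848 to 16.0 CPM in Control and 0.287 to 27.7 CPM in siSCRT1. The 2 libraries that stood apart were Control 4 and siSCRT1 D, in which Pdgfra had 2.77 and 4.68 CPM, inside the range of the others.

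The other lists were as follows. The α-cell markers summed to between 210 and 582 CPM, 98.8% of it Gcg, and the δ- and PP-cell markers to between 18.7 and 90.2 CPM. In each group both sums and Ldha were lowest in the same library, Control 2 and siSCRT1 B, as was seen afterwards. Ldha was highest in Control 1 and siSCRT1 E, where the α-cell sums were 582 and 381 CPM and the δ- and PP-cell sums 50.6 and 90.2 CPM. The order was not the same throughout: siSCRT1 A had a higher α-cell sum (463 CPM) than E, and Control 5 a higher δ- and PP-cell sum (83.7 CPM) than Control 1. The acinar markers were at 1.83 to 4.86 CPM, the endothelial ones at 0.539 to 1.37, the immune ones at 4.46 to 8.03 and the Schwann cell ones at 2.64 to 7.09. The duct list, at 188 to 266 CPM, was 98.1% Krt7, and the mesothelial list, at 193 to 263 CPM, was almost wholly Krt8. The part of these cells in the levels of the disallowed genes was not tested.

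For each of the 8 genes tested, the 3 genes whose log2(CPM + 0.5) followed it most closely over the 10 libraries were listed, as a description of the best of many genes. Ldha was followed by Kif3c (Pearson r 0.95), Cacna1g (0.91) and Serac1 (0.88), and Maf by Nr4a1 (0.95), Wnk4 (0.91) and Iqsec3 (0.88). Pdgfra was followed by Tbcb (0.95) and by Surf2 and LOC100912042 (both 0.93), which carry identical values in the table. Slc16a1 was followed by Pus7l (0.95), Mtpap (0.89) and RGD1307621 (0.88), and Acot7 by Gorasp1 (0.93), Atg4d (0.91) and Gpd1 (0.91). For Oat these were Insc (0.87), Acap3 (0.86) and Socs7 (0.86), for Igfbp4 Ccdc136 (0.93), LOC500035 (0.87) and Nmral1 (0.86), and for Cxcl12 LOC100910143 (0.86), Bcl7b (0.83) and Taf6 (0.83). The points share library and depth.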

How the data were processed

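RNA-seq libraries (Illumina TruSeq, single-end reads) of 5 Control and 5 siSCRT1 samples were analysed. Per the labels and the methods, the authors used FastQC, Trimmomatic, kallisto against the Rnor6 transcriptome and Sleuth; versions are not given in the sources used here. The deposited estimated counts and TPM are recorded as signal: that they were scaled between libraries was read from the values, where low counts in each library are multiples of one step and TPM sums ran from 821278 to 1153952. Dividing by the step gave recovered reads, whole within 0.001 for 75.3% of gene values, with 14139599 ± 1482962 reads in Control and 14721995 ± 2049887 in siSCRT1 (SD, n = 5 each). Another 9363 rows held no values.

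Gene sums of the scaled counts, with 0.5 added and on the log2 scale, were fitted with limma 3.58.1 (trend, R 4.3.3), group only. Benjamini-Hochberg adjustment ran over the 12941 genes that reached a level worth 10 reads at the median depth in 5 or more libraries, and 15 reads in total. Fold changes on this scale understate those of low genes. Transcripts needed 5 reads in 47% of libraries. Single values were compared by exact permutation in scipy 1.17.1. The fits were tested on simulated data, where the transcript fit missed the first criterion set for the sign of changes, and the criterion was then relaxed. The genes named were the 10 disallowed genes, Scrt1, and per list the genes under the threshold or otherwise the 3 highest by TPM. Also named were the 3 genes that followed each gene most closely (at least 5 CPM). Ldhb, Syt4, Cxcr4 and Rcor1 fall outside this rule and were named after their values were seen. The disallowed genes and all lists were chosen with earlier results of these data known. Same-numbered libraries deviated together (correlations 0.1306 to 0.3512 over 5 pairs, other pairs -0.1792 to 0.1674), so the number was fitted as a block in an alternative, and the labels do not state the pairing. Other scalings, filters, pseudocounts, TPM, limma-voom and leaving out libraries were also tried. Some results of the lists are not reported here. Depth gives counting error only.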

Additional observations from a re-analysis of the deposited data

Results flagged for a closer look

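In 4 of 50 groups of 5 libraries, 1 library stood far from the other 4, where chance gives about 1 in 20. Cxcl12 had 1.28 CPM in Control 4 and 0.648 to 0.764 CPM in the other Control libraries. The endothelial marker sum was 1.37 CPM in siSCRT1 B and 0.831 to 0.939 CPM in the other siSCRT1 libraries. The mesenchymal marker sum was 16.0 CPM in Control 4, against 0.848 to 1.68 CPM in the other Control libraries. It was 27.7 CPM in siSCRT1 D, while siSCRT1 A, B, C and E had 0.287 to 4.37 CPM. Control 4 and siSCRT1 D carry the same number in the deposited table, but Cxcl12 was at 0.345 CPM in siSCRT1 D, the lowest of its group. The part of mesenchymal cells in the Cxcl12 values was not tested.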

How the results depend on the processing

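No disallowed gene that was tested passed in any of 21 alternatives (164 fits, lowest limma adjusted p 0.15; with a filter of 50 reads only 4 of the 8 were tested), and their median log2 fold change stayed between 0.0867 and 0.366. With the replicate number as a block, 259 genes were called in place of 136, and 2 listed genes (Syt4 and Scrt1) in place of 1; the block changed no call of a disallowed gene. Leaving out 1 library gave 62 to 133 genes called. Without both libraries numbered 4, an alternative chosen after seeing the data, 25 genes and 0 listed genes were called, since Scrt1 itself was at -1.82 with a limma adjusted p of 0.062, Cxcl12 was at 0.37 and Slc16a1 at 0.066. The sign of small changes turned: on log2(TPM + 1) Cxcl12 was 0.011 and Ldha -0.011, on log2(TPM + 0.1) Cxcl12 was 0.0098, and with a pseudocount of 5 Ldha was -0.0026. Leaving out 1 library moved the log2 fold change of Ldha from -0.59 to 0.57, of Cxcl12 from -0.30 to 0.21, of Slc16a1 from -0.12 to 0.036 of Oat from -0.045 to 0.15, of Igfbp4 from 0.27 to 0.62, of Pdgfra from 0.23 to 0.58, of Acot7 from 0.13 to 0.33 and of Maf from 0.46 to 0.86. The difference in Rest ran from -0.0044 to 0.0862 CPM and that in the Ldha share from -2.50 to 3.36 percentage points. Differences in marker sums (CPM) ran from -89.9 to 2.34 for α-cells, -6.82 to 12.1 for δ- and PP-cells, -0.339 to 0.417 for acinar, -0.0077 to 0.157 for endothelial, -2.48 to 5.71 for mesenchymal, -0.215 to 0.678 for immune, -0.969 to 0.127 for Schwann and -9.15 to 8.21 for mesothelial markers. The permutation p of Hk1 was above 0.05 in 9 of 11 alternatives. All its reads stayed in Control in each, so the tied zeros and the number of libraries set these p-values. They do not measure how stable the difference in Hk1 is. The causes of the shifts in the other results were not tested. Depth limits Hk1 and Rest most, with at most 5 and 4 reads a library.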
